A study of Mus musculus with 36 samples.

Results

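The collagen and laminin chains are the structural proteins of the extracellular matrix that are named by their chain numbers. Every row of the gene count tables whose symbol was Col, a number, a and a number, or Lama, Lamb or Lamc and a number, was taken, which gave 55 genes (44 collagen and 11 laminin chains) of 21699 rows at each stage. The counts came from bulk RNA-seq of mouse gonads of 4 genotypes, with 3 libraries for each genotype at each of 2 stages, and each library pooled 2 pairs of gonads. XX control and XY control gonads were labelled WT. XX KO and XY KO gonads, labelled MiRC1 Mutant, lacked the microRNA cluster miR-17~92 on both chromosomes (miR-17~92 del/del) and carried the Cre transgene Tg(CAG-cre)1Nagy. The floxed allele came from a mixed C57BL/6 and 129S4/SvJae background, and the CAG promoter that drives the Cre is active in nearly all tissues, so the deletion was not restricted to a cell type of the gonad. Stages are named by embryonic day. At E11.5 the RNA came from the gonad together with the mesonephros, the embryonic kidney that lies beside it, and at E12.5 from the gonad alone. Stages also differed in library kit, so every comparison was made within a stage. The alleles that the controls carried besides are not given in the sources used here.

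Collagens are trimers of alpha chains wound into a triple helix, and laminins are cross-shaped trimers of 1 alpha, 1 beta and 1 gamma chain. Basement membranes are sheets in which a network of collagen IV and a network of laminin are joined by nidogen and heparan sulphate proteoglycans. Fibrillar collagens form the tensile fibres of loose connective tissue, collagen VI forms beaded filaments near cells, and collagens II, IX and XI form the thin fibrils of cartilage. FACIT collagens bind to the surface of fibrils. In the developing testis, Sertoli cells enclose the germ cells in cords and a basement membrane is laid down around each cord, while the ovary has no cords at this stage.

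The deleted cluster encodes microRNAs, short RNAs that bind matching sites in the 3′ untranslated region of messenger RNAs through a seed, bases 2 to 8. The 6 guide strands of the cluster, on the forward strand of chromosome 14 in GRCm38.p6 (RefSeq), are shown because their seeds define the sites searched in the chains. The seed is in capitals.
miR-17-5p: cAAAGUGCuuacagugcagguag
miR-20a-5p: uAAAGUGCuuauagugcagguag
miR-18a-5p: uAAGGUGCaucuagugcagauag
miR-19a-3p: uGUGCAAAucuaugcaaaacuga
miR-19b-3p: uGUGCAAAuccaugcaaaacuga
miR-92a-3p: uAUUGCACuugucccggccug
miR-17-5p and miR-20a-5p shared 1 seed, miR-19a-3p and miR-19b-3p shared another, and the remaining microRNAs had a seed each. In the longest annotated 3′ untranslated region of each gene (GENCODE vM21, GRCm38), the 7 bases complementary to the seed were found in 18 of 55 chains (32.7%), against 6028 of 20971 protein-coding genes (28.7%). The sites GCACTTT of miR-17-5p and miR-20a-5p were in 7 chains (12.7%, against 11.7% of all genes), GCACCTT of miR-18a-5p in 5 (9.09% against 7.8%), TTTGCAC of miR-19 in 2 (3.64% against 11.4%) and GTGCAAT of miR-92a-3p in 6 (10.9% against 6.56%). A match is a sequence feature and was not tested as a site of regulation.

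The chains Col4a4 and Lamc3, which were called higher in mutants of both sexes at E11.5, and the main chains of collagen I, Col1a1 and Col1a2, carried matches. Col5a2, the other chain called in both sexes at E11.5, had none. The matches are shown with 8 bases on each side, the match in capitals and the coordinates of the whole stretch in GRCm38.
Col4a4, miR-17-5p and miR-20a-5p, chr1:82452594-82452616, reverse strand: taagccagGCACTTTaaataatt
Col4a4, miR-17-5p and miR-20a-5p, chr1:82451542-82451564, reverse strand: ttttcagtGCACTTTagaataat
Lamc3, miR-19a-3p and miR-19b-3p, chr2:31945617-31945639, forward strand: ccccagtaTTTGCACatatgtgt
Col1a1, miR-92a-3p, chr11:94952375-94952397, forward strand: attcctcaGTGCAATtgtgttgc
Col1a2, miR-92a-3p, chr6:4540826-4540848, forward strand: agagcagtGTGCAATatgatcca
Of the 17 tested chains with a match, at E11.5 2 were higher and 1 lower in XY KO than in XY control gonads, with a median log2 fold change of 0.30, and of the 34 without a match 2 were higher and 3 lower, with a median of 0.07. Of all tested genes, 5.88% were higher and 6.81% lower there (edgeR quasi-likelihood test). In XX KO against XX control gonads of that stage the counts were 2 higher and 0 lower with a match (median 0.49), and 3 higher and 1 lower without one (median 0.29), where 1.81% of all tested genes were higher and 1.46% lower. At E12.5, 2 of 18 chains with a match were higher and 8 lower in XY KO gonads (median -0.49), and of 36 without a match 6 were higher and 11 lower (median -0.11), where 10.3% of all tested genes were higher and 10.3% lower. In XX KO gonads of that stage 6 of the 18 were higher and 0 lower (median 0.75), and 15 of the 36 were higher and 1 lower (median 0.66), where 3.42% of all tested genes were higher and 1.85% lower.

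Collagen IV genes lie in head-to-head pairs, and the starts of a pair are shown because both members were compared below. The starts of Col4a1 and Col4a2 were 21 bases apart on chromosome 8 in both annotations. The stretch from one start to the other, chr8:11312805-11312826 of GRCm38.p6, forward strand (RefSeq), is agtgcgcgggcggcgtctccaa. It lies inside both genes, on opposite strands, and the strand setting of the counting is not given in the sources used here. The starts of Col4a3 and Col4a4 were 72 bases apart on chromosome 1 in GENCODE, and those of Col4a5 and Col4a6 1309 bases apart on chromosome X.

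Total counts were between 17150620 and 34077443 at E11.5 and between 11877379 and 44155275 at E12.5. The chains took 0.998% to 1.70% of the counts of a library at E11.5 and 0.691% to 2.17% at E12.5. Levels are CPM, counts scaled to a common library total after TMM normalization, and a value after ± is the SD of 3 libraries. A chain entered the quasi-likelihood test of edgeR, fitted together with all other genes, where 2 or more of the 12 libraries of its stage reached 1 CPM. It was called where its FDR, the p-value after Benjamini-Hochberg adjustment, was under 0.05. This kept 51 chains at E11.5 and 54 at E12.5. Col10a1, a chain of hypertrophic cartilage, was tested at neither stage, and Col6a5, Col19a1 and Col28a1 were not tested at E11.5; the highest level of these in any library of that stage was 1.03 CPM. Nothing in the labels says that libraries of a genotype came from separate litters, so p-values measure the spread between these libraries. Counts of libraries of a group differed by 7.19 to 84.5 in chi-square per degree of freedom, where sampling noise alone gives about 1, and each library was kept as a replicate. Xist and Ddx3y followed the labelled sex in every library. Mir17hg, the host gene of the cluster, rose in the mutants at both stages, but its row also counts parts of the transcript outside the microRNAs and so does not check the deletion.

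At E11.5, levels per kilobase of exon placed fibrillar collagens first in all 4 genotypes. Col3a1 had 249 ± 15.4 CPM per kb in XX control and 220 ± 46.7 CPM per kb in XY control gonads, and Col1a1 had 191 ± 20.2 and 176 ± 42.7 CPM per kb. Between these chains the levels in XY controls overlapped within their SD. Col1a2, with 137 ± 10.6 and 123 ± 30.6 CPM per kb, came after them. These levels used the union of all annotated exons, 12.426 kb for Col1a2, 9.816 kb for Col3a1 and 6.563 kb for Col1a1. The basic transcript set gives 5.348, 5.564 and 5.93 kb. With the basic lengths Col1a2 stands above Col1a1 in both controls, so the order and the overlap depend on the lengths used. Of basement membrane chains, Col4a1 had 98.5 ± 5.97 and 85.7 ± 25.9 CPM per kb, and Col18a1, whose product releases endostatin, had 98.0 ± 2.82 and 117 ± 20.8 CPM per kb. Lamb1, the most abundant laminin chain of the controls at this stage, had 56.6 ± 0.33 CPM per kb in XX and 52.4 ± 12.8 CPM per kb in XY controls.

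With all libraries kept, few chains were called as different between the sexes at E11.5. Between XX control and XY control gonads 2 of 51 tested chains were lower and 0 higher in XX, where 0.528% of all tested genes were lower and 0.359% higher. Col9a3, a chain of the cartilage FACIT collagen IX (ENSMUSG00000027570, chromosome 2, 180597790 to 180622189), had 9.30, 5.55 and 4.58 CPM in the XX control libraries and 24.2, 35.1 and 65.8 CPM in XY controls. Its log2 fold change was -2.70 (standard error 0.45, FDR = 0.0163, edgeR quasi-likelihood test). Col27a1, a fibrillar chain also made in cartilage, had 69.2, 54.9 and 55.5 CPM in XX and 117, 92.7 and 147 CPM in XY controls (log2 fold change -0.99, standard error 0.15, FDR = 0.00229). For both chains every XX library lay below every XY library. The count was 12 without XY control replicate 2 (5 higher and 7 lower in XX), where calls over all genes rose from 126 to 2495. It was 3 without XY control replicate 1 or XX KO replicate 1, and 1 without XX control replicate 2 or 3, where the call of Col9a3 was lost. Markers of Sertoli cells, the supporting cells of the testis, moved alike: the summed level of 8 was 93.7 to 116 CPM in XX control, 177 to 354 CPM in XY control and 79.8 to 92.8 CPM in XY KO libraries at E11.5, and their part in the changes of Col9a3 and Col27a1 was not tested. The median log2 fold change of the chains was 0.10, against -0.00905 for all tested genes. At unadjusted p under 0.05 there were 11 chains.

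With the deletion, 4 of 51 chains were higher in XY gonads at E11.5 (7.84%, against 5.88% of all tested genes) and 4 lower (7.84% against 6.81%). The calls were spread over classes, and both shares were near the background. Higher in the mutants were Col5a2, a fibrillar chain that limits fibril width (log2 fold change 0.56, standard error 0.13, FDR = 0.0126), Col6a6 (0.82, standard error 0.22, FDR = 0.0238), Lamc3 (0.51, standard error 0.15, FDR = 0.0351) and Col4a4 (0.72, standard error 0.23, FDR = 0.0492). Lower were Col27a1 (-0.96, standard error 0.15, FDR = 0.00112), Col7a1, which anchors epithelial basement membranes (-0.88, standard error 0.14, FDR = 0.00129), Col9a3 (-1.61, standard error 0.42, FDR = 0.0307) and Col20a1 (-0.98, standard error 0.28, FDR = 0.0333). Col27a1 had 56.6, 59.1 and 68.2 CPM in XY KO libraries, below each XY control library, and Col9a3 had 11.6, 14.1 and 15.2 CPM. The call of Col4a4 was at the threshold and was lost with DESeq2 (FDR = 0.0533), library size alone (0.0611), no filter on low counts (0.0725), a replicate block (0.0645) and each library left out (0.0524 to 0.138, edgeR). Only Col27a1 and Col7a1 stayed called whichever library was left out. The count was 2 without XY KO replicate 1 or XY control replicate 3, 4 without XY control replicate 1, 5 without XY KO replicate 2 or 3, and 17 without XY control replicate 2. Markers moved in the same libraries. The summed level of 4 mesothelial markers was 166 to 191 CPM in XY control and 247 to 278 CPM in XY KO libraries, and that of 7 interstitial progenitor markers 1285 to 1479 and 1545 to 1634 CPM. Other lists fell. The summed level of 6 gonadal somatic cell markers was 1238 to 1319 CPM in XY control and 1017 to 1216 CPM in XY KO libraries. That of 7 markers of pre-granulosa cells, the supporting cells of the ovary, was 283 to 348 and 259 to 278 CPM. That of 6 fetal Leydig cell markers was 47.5 to 54.4 and 36.6 to 37.4 CPM. None of these lists overlapped between the groups, and their part in these changes was not tested.

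In XX gonads of the same stage, 5 of 51 chains were higher with the deletion (9.8%, against 1.81% of all tested genes) and 1 lower (1.96% against 1.46%), and the median log2 fold change was 0.32, against -0.00227 for all tested genes. Lama5, the alpha chain of many epithelial basement membranes, had 178, 166 and 190 CPM in XX control and 286, 299 and 313 CPM in XX KO libraries, which did not overlap (log2 fold change 0.75, standard error 0.11, FDR = 0.00125). Lamc3 had 15.9, 14.9 and 13.7 CPM in the controls and 24.8, 26.6 and 30.9 CPM in the mutants (0.89, standard error 0.15, FDR = 0.0049). Col4a4 rose from 1.29 ± 0.14 to 2.89 ± 0.33 CPM (1.17, standard error 0.23, FDR = 0.0127). Col16a1 (0.68, FDR = 0.00986) and Col5a2 (0.65, FDR = 0.0144) were also higher, and Col23a1, a transmembrane collagen, was lower (-0.68, FDR = 0.025). Only Lama5 and Lamc3 stayed called in every fit with a library left out. The count was 2 without XX control replicate 2 and 12 without XY control replicate 2, which enters through the shared estimate of spread. Calls over all genes were 142 and 664 in these fits, against 465 with all libraries kept. Marker lists moved in XX gonads too. The summed level of the 7 interstitial progenitor markers was 1380 to 1465 CPM in XX control and 1703 to 1780 CPM in XX KO libraries. That of the 4 mesothelial markers was 139 to 175 and 226 to 285 CPM. Pre-granulosa markers fell from 452 to 461 CPM to 325 to 368 CPM, and fetal Leydig markers from 44.7 to 48.8 CPM to 31.6 to 36.8 CPM. Those of mesonephric tubules and duct (8) fell from 281 to 305 CPM to 225 to 266 CPM. Gonadal somatic markers overlapped, at 1299 to 1444 and 1165 to 1451 CPM. The part of these lists in the changes was not tested.

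At E11.5 the chains called higher in the mutants of both sexes were 3, Col4a4, Col5a2 and Lamc3. The difference between the effect of the deletion in XY and in XX gonads was called for 0 of 51 chains (edgeR quasi-likelihood test). Of all genes, 0.00703% were higher and 0.0281% lower there. There were 10 chains at unadjusted p under 0.05, and 4 were called by DESeq2. Without XY control replicate 1, 1 chain was called, and without XY control replicate 2, 2 were. Calls over all genes were 40 and 228 in these fits, against 5 with all libraries kept. Between XX KO and XY KO gonads 0 chains were called at E11.5 (0.0352% of all genes higher and 0.0492% lower in XX KO), with 13 at unadjusted p under 0.05 and 0 by DESeq2, so that a difference between the mutants was not detectable with these libraries.

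At E12.5 the controls of the sexes differed in most chains. Of 54 tested chains, 33 were lower in XX control than in XY control gonads (61.1%, against 12.4% of all tested genes) and 4 were higher (7.41% against 11.4%). The median log2 fold change was -0.98, against 0.00716 for all genes. In both directions 35 of the 37 calls stayed in every fit with a library left out; Col24a1 and Col6a4 did not. The plot of log2 fold changes by class shows this comparison beside those of the mutants.

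**Figure D1:**
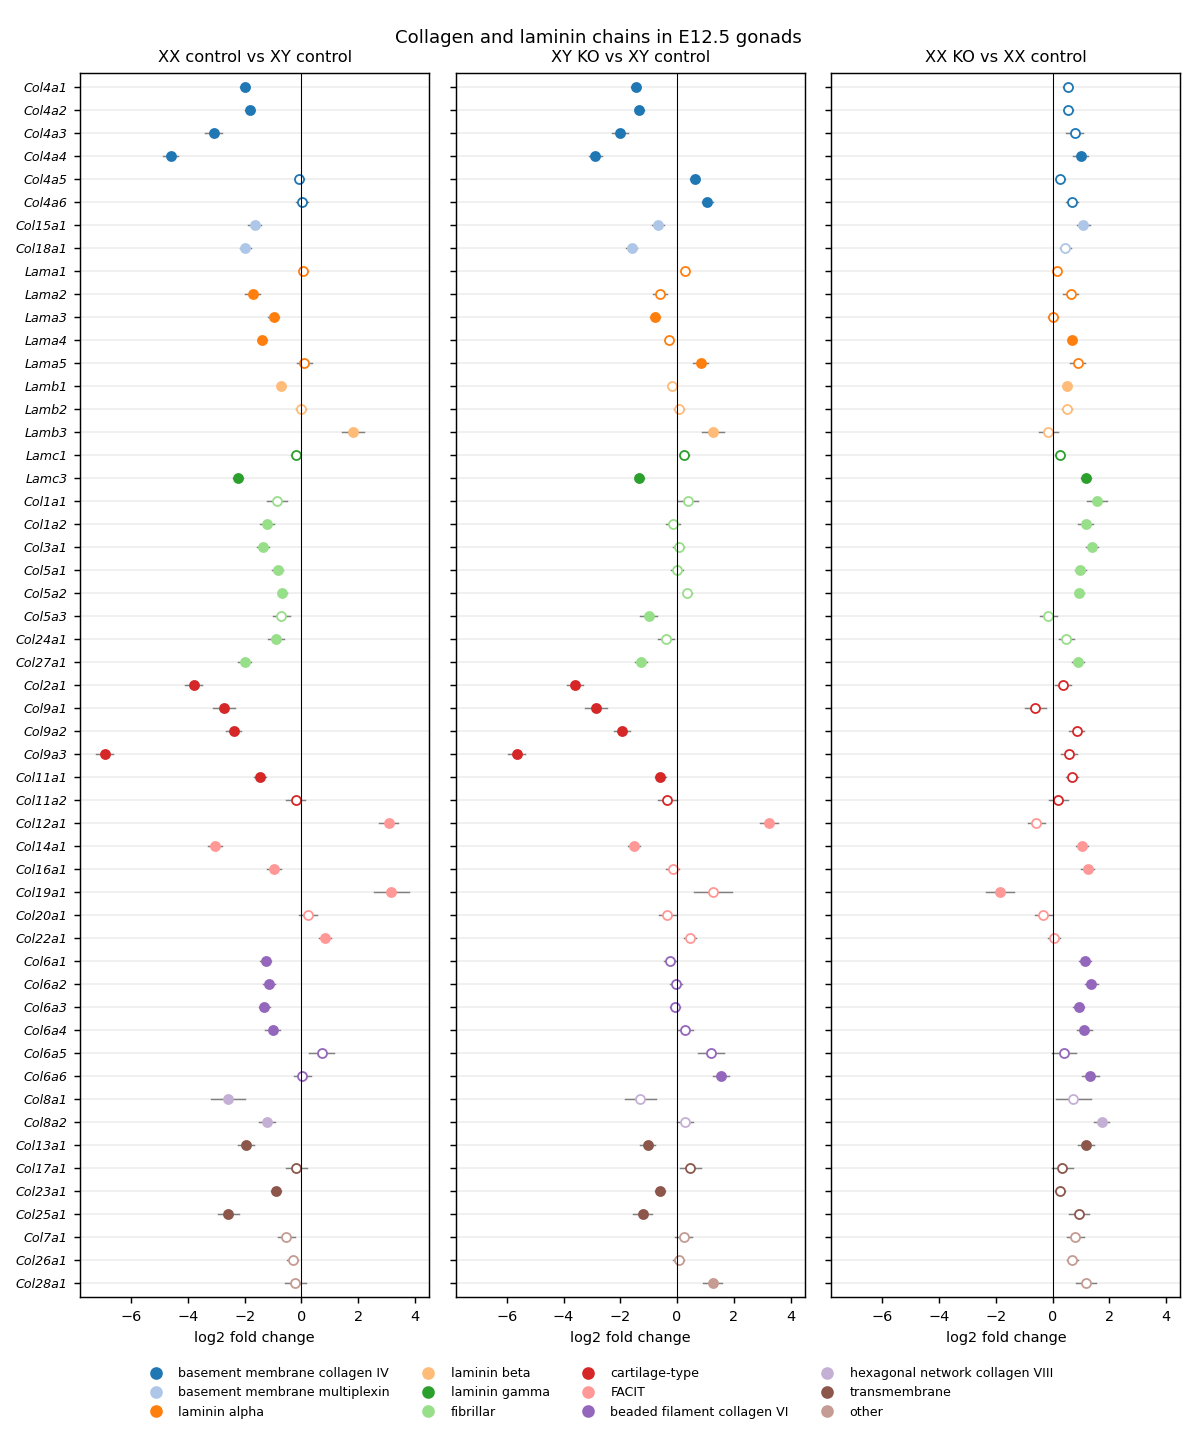
Log2 fold changes of the tested chains reported by name at E12.5 (horizontal axis) for XX control against XY control, XY KO against XY control and XX KO against XX control gonads, grouped and coloured by class, with the standard error as a line. Filled points passed an FDR under 0.05; in the first panel 33 are filled left of 0 and in the second 19, and in the third all filled points but Col19a1 lie right of 0.

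Per kilobase of exon, Col4a1 was the most abundant chain of XY controls, at 397 ± 93.2 CPM per kb, before Col18a1 (254 ± 59.4 CPM per kb) and Col3a1 (247 ± 67.6 CPM per kb), which did not differ beyond their SD. In XX controls Col4a1 (99.7 ± 3.99 CPM per kb) and Col3a1 (96.8 ± 17.9 CPM per kb) were level. In the mutants of both sexes Col3a1 came first, at 250 ± 45.3 CPM per kb in XX KO and 256 ± 45.1 CPM per kb in XY KO gonads. These orders used union exon lengths, 9.816 kb for Col3a1 and 7.464 kb for Col4a1, where the basic transcript set gives 5.564 and 6.615 kb. With the basic lengths Col3a1 stands above Col4a1 in XX controls, and above Col18a1 and near Col4a1 in XY controls. The 6 collagen IV chains summed to 522 to 819 CPM per kb in XY control, 185 to 201 in XX control, 255 to 314 in XY KO and 242 to 298 CPM per kb in XX KO libraries. Of the 19 basement membrane chains (collagen IV, multiplexins and laminins), 11 were lower (57.9%) and 1 higher (5.26%) in XX than in XY controls, 8 were lower (42.1%) and 5 higher (26.3%) in XY KO than in XY control gonads, and 6 were higher (31.6%) and 0 lower in XX KO than in XX control gonads. These shares, and those of the classes below, stand beside 12.4% lower and 11.4% higher of all tested genes between the controls, 10.3% in each direction in XY KO, and 1.85% lower and 3.42% higher in XX KO gonads.

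The pair Col4a1 and Col4a2, which forms the collagen IV trimer of nearly all basement membranes, was highest in XY controls. Col4a1 had 3730, 2799 and 2368 CPM in XY control libraries and 779, 728 and 726 CPM in XX controls (log2 fold change -1.99, standard error 0.16, FDR = 3.97e-07). XY KO libraries, with 974, 1122 and 1163 CPM, lay between those of the controls and overlapped neither (-1.45 against XY control, standard error 0.16, FDR = 1.04e-05). XX KO libraries had 948, 1145 and 1129 CPM, above all XX controls, but the change did not pass the test (0.53, FDR = 0.0623). Col4a2 had 1815, 1439 and 1126 CPM in XY controls, 428, 385 and 423 CPM in XX controls, 491, 616 and 643 CPM in XY KO and 548, 631 and 635 CPM in XX KO libraries. Its log2 fold changes were -1.83 between the controls (FDR = 1.52e-06) and -1.32 in XY KO against XY control gonads (FDR = 3.83e-05). The ratio of Col4a1 to Col4a2 counts stayed between 1.61 and 2.1 in all libraries of both stages, while the levels of the pair moved.

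Col4a3 and Col4a4, chains of a second collagen IV network known from the kidney glomerulus, were at low levels and differed more. Col4a4 had 55.1, 31.9 and 41.1 CPM in XY control libraries, 1.86, 1.87 and 1.50 CPM in XX controls, 7.31, 6.07 and 4.29 CPM in XY KO and 2.96, 3.92 and 3.56 CPM in XX KO libraries. All XY controls lay above all other libraries, and the levels of XY KO lay between those of the controls. The log2 fold change was -4.61 between the controls (standard error 0.27, FDR = 2.04e-08), -2.88 in XY KO against XY control (standard error 0.24, FDR = 7.89e-07) and 0.99 in XX KO against XX control gonads (standard error 0.26, FDR = 0.0425); the last was lost in most fits with a library left out. Col4a3 had 10.2, 9.28 and 9.38 CPM in XY controls and 0.62, 1.46 and 1.31 CPM in XX controls (-3.09, FDR = 3e-06), and 3.10, 2.29 and 1.88 CPM in XY KO libraries (-2.00 against XY control, FDR = 0.000115). The ratio of Col4a4 to Col4a3 was 3.44 to 5.39 in XY controls, 2.28 to 2.65 in XY KO, 1.75 to 1.86 in XX KO and 1.14 to 3.00 in XX control libraries.

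The X-linked pair Col4a5 and Col4a6 behaved otherwise. Between the controls Col4a5 (177 ± 13.9 CPM in XX and 187 ± 29.7 CPM in XY) and Col4a6 (40.5 ± 6.86 and 39.5 ± 10.1 CPM) differed by log2 fold changes of -0.08 (FDR = 0.775) and 0.04 (FDR = 0.934). In XY KO gonads Col4a5 rose to 287 ± 26.6 CPM (0.62, standard error 0.16, FDR = 0.0122) and Col4a6 to 83.0 ± 17.1 CPM (1.07, standard error 0.21, FDR = 0.00193). The libraries of Col4a6 in XY KO, 73.9, 72.4 and 103 CPM, were all above those of XY control, 50.7, 31.0 and 36.8 CPM. The rise of Col4a6 stayed called with each library left out, and that of Col4a5 was lost without XY KO replicate 3 or XY control replicate 2. In XX KO against XX control gonads neither passed (0.26, FDR = 0.333, and 0.69, FDR = 0.071).

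**Figure D2:**
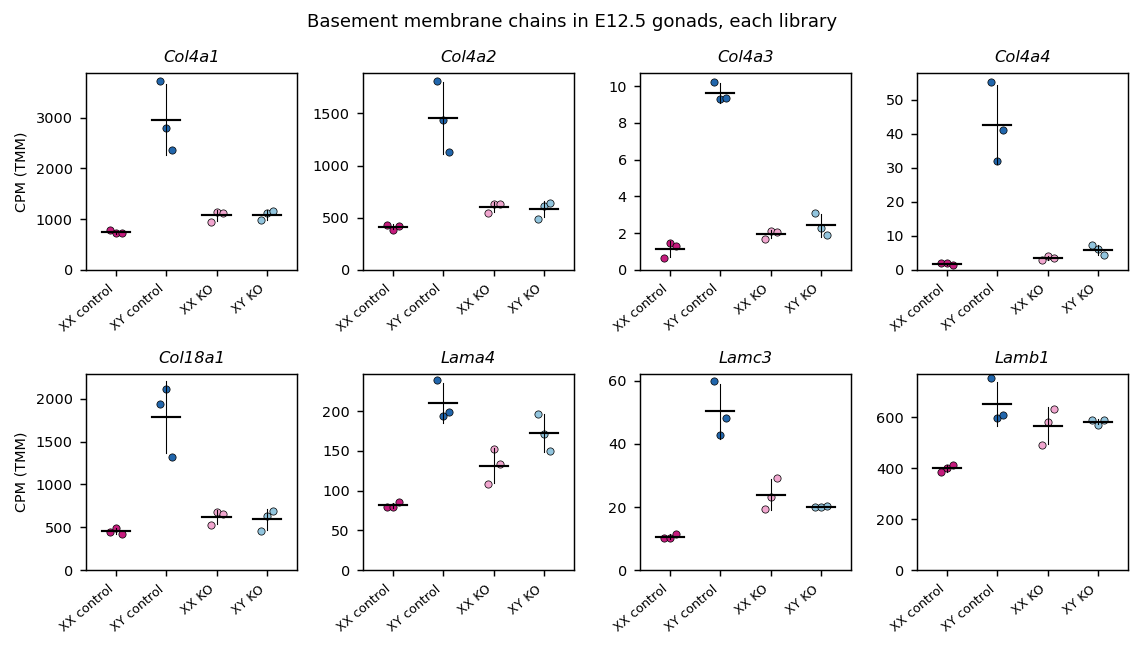
Levels of 8 basement membrane chains at E12.5 in CPM (vertical axis, linear, from 0), with 1 point for each library, a bar at the mean and a line of 1 SD, for the controls and mutants of each sex. Of these chains, Col4a1, Col4a2, Col4a3, Col4a4, Col18a1 and Lamc3 had all 3 XY control libraries above the other 9.

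The other collagens of basement membranes followed Col4a1. Col18a1 had 1938, 2107 and 1315 CPM in XY control, 447, 494 and 418 CPM in XX control, 456, 632 and 690 CPM in XY KO and 524, 681 and 651 CPM in XX KO libraries. XY controls stood above all the others, with log2 fold changes of -1.98 for XX control (standard error 0.19, FDR = 2.99e-06) and -1.59 for XY KO (standard error 0.19, FDR = 2.87e-05). Col15a1, its close relative in vessels and muscle, was lower in XX controls (-1.65, FDR = 9.83e-05) and higher in XX KO than in XX control gonads (1.08, FDR = 0.0196). Its fall in XY KO gonads (-0.67, FDR = 0.0493) was at the threshold and was lost in most fits with a library left out.

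Laminin chains were divided by chain. Of 11, 5 were lower (45.5%, against 12.4% of all tested genes) and 1 higher (9.09% against 11.4%) in XX than in XY controls at E12.5, with a median log2 fold change of -0.21. The common chains Lama1, which begins most embryonic basement membranes, Lama5, Lamb2 and Lamc1 differed by log2 fold changes between -0.21 and 0.10, with FDR from 0.417 to 0.98. Lamc1, the gamma chain of most laminins, had 539, 379 and 404 CPM in XY and 400, 413 and 334 CPM in XX controls, which overlapped. Lamb1, its usual beta partner, was lower in XX controls (400 ± 14.4 against 653 ± 87.5 CPM, log2 fold change -0.71, FDR = 0.000717). Lama4, the alpha chain of vessel walls, had 78.7, 79.6 and 85.4 CPM in XX and 239, 194 and 199 CPM in XY controls (-1.37, standard error 0.15, FDR = 7.53e-06). Lama2, the alpha chain of muscle and nerve, was at 19.0 ± 1.13 and 62.2 ± 19.7 CPM (-1.71, FDR = 0.000201), and Lama3 at 10.5 ± 1.30 and 20.7 ± 4.24 CPM (-0.98, FDR = 0.00125).

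Lamc3 had the strongest laminin difference between the sexes. It had 59.9, 42.8 and 48.4 CPM in XY control and 10.1, 10.3 and 11.4 CPM in XX control libraries (log2 fold change -2.25, standard error 0.17, FDR = 2.46e-07). In XY KO libraries it was at 19.9, 20.0 and 20.4 CPM, below all XY controls (-1.32, standard error 0.16, FDR = 3.85e-05), and in XX KO libraries at 19.3, 23.3 and 29.2 CPM, above all XX controls (1.17, standard error 0.17, FDR = 0.005). Lamc3 kept both of these calls with each library left out. Thus levels of the mutants of both sexes lay between those of the controls.

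Among the other laminins, XY KO gonads had higher Lamb3, a beta chain of lining epithelia (1.12 ± 0.34 against 0.46 ± 0.13 CPM, log2 fold change 1.26, FDR = 0.0371), and Lama5 (115 ± 37.2 against 65.0 ± 13.0 CPM, 0.83, FDR = 0.0351). For Lama5 the groups overlapped, with 79.5 CPM in 1 XY control and 79.0 CPM in 1 XY KO library, and each of these calls was lost without at least 1 library. Lama3, an alpha chain of lining epithelia, fell instead (12.1 ± 1.80 against 20.7 ± 4.24 CPM, -0.78, FDR = 0.00756). Of the common chains, Lamb1 (-0.16, FDR = 0.417) and Lamc1 (0.26, FDR = 0.298) did not pass in XY KO gonads.

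The largest difference of any chain was in the cartilage-type group. Of 6 tested, 5 were lower (83.3%) in XX than in XY controls, where 12.4% of all tested genes were, and 5 in XY KO than in XY control gonads, where 10.3% were, with median log2 fold changes of -2.56 and -2.39. Col9a3 had 477, 507 and 321 CPM in XY control libraries, 2.37, 3.18 and 5.25 CPM in XX controls, 5.96, 11.7 and 8.44 CPM in XY KO and 5.49, 5.14 and 5.19 CPM in XX KO libraries. No XY control library came near the other 9. The log2 fold change was -6.94 between the controls (standard error 0.31, FDR = 1.68e-09) and -5.65 in XY KO against XY control gonads (standard error 0.29, FDR = 1.03e-08). Per kilobase of union exon length Col9a3 was at 113 ± 25.9 CPM in XY controls, the eighth of the 55 chains there by that measure.

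Col2a1, the fibrillar collagen of cartilage, had 52.9, 122 and 56.6 CPM in XY controls, 4.90, 5.35 and 6.38 CPM in XX controls and 5.44, 6.68 and 6.96 CPM in XY KO libraries (log2 fold changes -3.80, FDR = 3.81e-07, and -3.59, FDR = 8.12e-07). Col9a1 had 26.0, 49.8 and 31.5 CPM in XY controls, and was at 5.36 ± 2.52 CPM in XX controls and 4.94 ± 0.32 CPM in XY KO gonads (-2.73, FDR = 0.000103, and -2.85, FDR = 9.27e-05). Col9a2 was at 244 ± 63.8, 46.5 ± 4.99 and 63.4 ± 25.9 CPM in these groups (-2.39, FDR = 1.51e-05, and -1.94, FDR = 0.000108). Col11a1, which nucleates cartilage fibrils, fell less (-1.45, FDR = 9.24e-05, and -0.59, FDR = 0.0498), and its call in XY KO gonads was lost without any one of the 6 libraries compared. Col11a2 was at 3.49 ± 0.37 CPM in XX and 3.95 ± 2.07 CPM in XY controls (-0.20, FDR = 0.744). None of the 6 was called in XX KO against XX control gonads (edgeR quasi-likelihood test), where their median log2 fold change was 0.46.

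Cartilage cells themselves were sought with a list of 8 markers, of which 7 were in the table. Their summed level was 136 to 156 CPM in XX control, 146 to 170 CPM in XY control, 105 to 132 CPM in XX KO and 136 to 168 CPM in XY KO libraries, so the groups overlapped for all but XX KO. Acan, the main proteoglycan of cartilage, was at 21.0 CPM in XX and 18.2 CPM in XY controls (log2 fold change 0.20, FDR = 0.637) and fell to 10.3 CPM in XY KO gonads (-0.84, FDR = 0.0291). Matn1, Matn3 and Comp, matrix proteins of mature cartilage, had means below 1 CPM in all 4 genotypes. In both controls most of the sum thus came from the other markers of the list. The sum says little about cartilage cells, whose presence was not tested. Sertoli cell markers were high in XY controls alone. The summed level of 8 was 1832 to 2490 CPM in XY control, 31.1 to 43.2 CPM in XX control, 37.5 to 45.6 CPM in XX KO and 56.9 to 90.2 CPM in XY KO libraries. Fetal Leydig cell markers (6) were at 879 to 1850 CPM in XY controls and at 48.2 to 76.5 CPM elsewhere. In bulk tissue fewer cells of a type and less RNA in each cell cannot be told apart, and the part of cell composition in these differences was not tested.

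**Figure D3:**
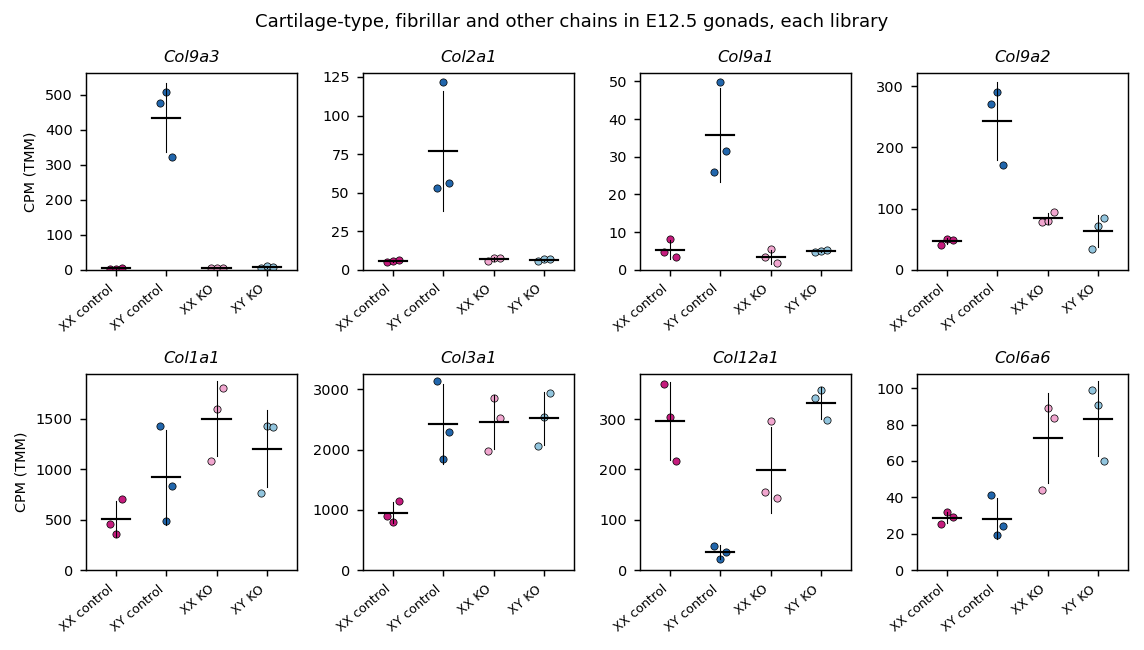
Levels of 8 chains at E12.5 in CPM (vertical axis, linear, from 0), with 1 point for each library, a bar at the mean and a line of 1 SD, for the 4 genotypes. Col9a3, Col2a1, Col9a1 and Col9a2 were high in XY controls alone; Col1a1 and Col3a1 had their lowest means in XX controls; Col12a1 was lowest in XY controls; Col6a6 was higher in the mutants.

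Fibrillar chains formed a different pattern. At E12.5 6 of 8 were lower in XX than in XY controls (75%, against 12.4% of all tested genes, median log2 fold change -0.88). In XY KO against XY control gonads 2 were lower (25% against 10.3%, median -0.07), and in XX KO against XX control gonads 6 were higher (75% against 3.42%, median 0.95). Col3a1, the fibrillar collagen of soft tissues, had 904, 802 and 1144 CPM in XX control libraries, 3144, 1837 and 2294 CPM in XY controls, 1978, 2859 and 2525 CPM in XX KO and 2061, 2545 and 2945 CPM in XY KO libraries. The XX controls lay below all other libraries, and the other 3 groups overlapped. Its log2 fold change was -1.35 between the controls (standard error 0.21, FDR = 0.000232), 1.37 in XX KO against XX control (standard error 0.21, FDR = 0.00657) and 0.05 in XY KO against XY control gonads (FDR = 0.894).

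Col1a2 behaved alike, with 717, 557 and 918 CPM in XX control and 1203, 1904 and 1782 CPM in XX KO libraries (log2 fold change 1.16, FDR = 0.0209), and with -0.13 (FDR = 0.776) in XY KO against XY control gonads. Col1a1, its partner in collagen I, rose from 452, 357 and 707 CPM to 1084, 1599 and 1807 CPM in XX KO gonads (1.57, standard error 0.36, FDR = 0.0283). Between the controls Col1a1 did not pass (-0.86, FDR = 0.103), with 1424, 490 and 836 CPM in the XY control libraries. Col5a1 (0.97, FDR = 0.0166), Col5a2 (0.94, FDR = 0.00913) and Col27a1 (0.89, FDR = 0.0308) were higher in XX KO too. Col27a1 and Col5a3 were the fibrillar chains lower in XY KO gonads; Col27a1 had 183, 196 and 130 CPM in XY control and 49.9, 77.3 and 81.2 CPM in XY KO libraries (-1.29, standard error 0.21, FDR = 0.000488), and Col5a3 was at 10.9 ± 1.95 and 5.45 ± 1.61 CPM (-0.99, FDR = 0.0299).

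Collagen VI chains were lower in XX than in XY controls for 4 of 6 (Col6a1, Col6a2, Col6a3 and Col6a4, log2 fold changes from -1.31 to -1.01), or 66.7% against 12.4% of all tested genes. In XX KO gonads 5 of 6 were higher than in XX controls (83.3% against 3.42%). Col6a2 rose from 189, 228 and 289 to 522, 570 and 730 CPM (1.37, standard error 0.22, FDR = 0.00737) and Col6a1 from 181, 230 and 288 to 448, 482 and 613 CPM (1.14, FDR = 0.00913), with no overlap. Col6a6, an alpha3-like chain, was the one called higher in the mutants of both sexes among them. It had 41.1, 19.2 and 24.4 CPM in XY control and 99.0, 90.5 and 60.1 CPM in XY KO libraries (1.55, standard error 0.30, FDR = 0.00157), and 28.9 ± 3.06 and 72.3 ± 24.7 CPM in XX control and XX KO gonads (1.33, FDR = 0.0236). Col6a1, Col6a2 and Col6a3 changed by log2 fold changes between -0.25 and -0.04 in XY KO gonads and did not pass.

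FACIT chains split in direction. Col12a1, a fibril-associated collagen of tendon and fascia (ENSMUSG00000032332, chromosome 9, 79598991 to 79718831), had the largest rise in XY KO gonads. It had 48.5, 21.3 and 36.0 CPM in XY control, 369, 304 and 216 CPM in XX control, 341, 358 and 297 CPM in XY KO and 156, 297 and 142 CPM in XX KO libraries. XY controls lay below all others. The summed level of 7 pre-granulosa cell markers, of the supporting cells of the ovary, was also lowest in XY control libraries, at 107 to 144 CPM. It was 754 to 1025 CPM in XX control, 592 to 651 CPM in XY KO and 749 to 1042 CPM in XX KO libraries. Between the mutants Col12a1 was not called as different. The part of the markers in the change of Col12a1 was not tested. The log2 fold change of Col12a1 was 3.07 between the controls (standard error 0.33, FDR = 7.89e-06) and 3.24 in XY KO against XY control gonads (standard error 0.33, FDR = 6.55e-06). Col14a1, its close relative, went the other way, with 330, 286 and 287 CPM in XY control, 36.3, 29.6 and 43.6 CPM in XX control, 83.8, 107 and 125 CPM in XY KO and 51.5, 103 and 70.0 CPM in XX KO libraries. Its log2 fold changes were -3.04 between the controls (FDR = 3.25e-07), -1.51 in XY KO (FDR = 0.000189) and 1.04 in XX KO gonads against their controls (FDR = 0.0211). Col16a1 was lower in XX than in XY controls (-0.97, FDR = 0.00642) and higher in XX KO than in XX controls (1.23, FDR = 0.0125). Col19a1, at 2.05 ± 0.78 CPM in XX and 0.22 ± 0.16 CPM in XY controls, was higher in XX controls (3.17, FDR = 0.00136) and lower in XX KO gonads (0.55 ± 0.34 CPM, -1.85, FDR = 0.0473). Col22a1 was also higher in XX controls (0.84, FDR = 0.00862).

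The remaining collagens were less abundant. The transmembrane chains Col13a1, Col23a1 and Col25a1 were lower in XX than in XY controls (log2 fold changes -1.94, -0.90 and -2.57) and in XY KO than in XY control gonads (-1.04, -0.60 and -1.21), though each of the latter calls was lost without at least 1 library. Col8a2, a chain of hexagonal lattices in the cornea and vessels, rose from 17.5, 15.6 and 28.8 CPM in XX control to 49.0, 74.7 and 79.8 CPM in XX KO libraries (1.72, standard error 0.28, FDR = 0.00722). It was lower in XX than in XY controls (-1.22, FDR = 0.00462), as was Col8a1 at low counts (0.52 ± 0.07 against 3.22 ± 1.89 CPM, -2.59, FDR = 0.00531). Col28a1 was higher in XY KO gonads (1.64 ± 0.51 against 0.67 ± 0.05 CPM, 1.25, FDR = 0.0177). The 9 chains called in none of the comparisons between controls and of each mutant with its control at E12.5 were Col6a5, Col7a1, Col11a2, Col17a1, Col20a1, Col26a1, Lama1, Lamb2 and Lamc1 (edgeR quasi-likelihood test).

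Over all 54 chains, 8 were higher (14.8%, against 10.3% of all tested genes) and 19 lower (35.2%, also against 10.3%) in XY KO than in XY control gonads at E12.5. The median log2 fold change was -0.16, against -0.00814 for all genes. With each library left out in turn 16 of the 27 stayed called in every fit: Col12a1, Col14a1, Col18a1, Col27a1, Col2a1, Col4a1, Col4a2, Col4a3, Col4a4, Col4a6, Col6a6, Col9a1, Col9a2, Col9a3, Lama3 and Lamc3. This comparison shares the XY controls with that between the sexes, so the likeness of their values is partly set by the same libraries.

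In XX KO against XX control gonads at E12.5, 21 chains were higher (38.9%, against 3.42% of all tested genes) and 1 lower (1.85%, also the share of all genes). The median log2 fold change was 0.70, against -0.00152 for all genes. The number of calls depended on the libraries kept, for the chains as for all genes. Leaving out XX control replicate 1 left 1 chain called, leaving out replicate 2 of that group left 4, and leaving out XX KO replicate 3 left 6, while calls over all genes fell from 755 to 35, 83 and 117. Only Lamc3 stayed in every fit. Without XX control replicate 1 the log2 fold change of Col3a1 was 1.33 (FDR = 0.0502, edgeR), near its value with all libraries, and that of Col1a2 was 1.14 (FDR = 0.0809). Markers of other cells moved in the same libraries. The summed level of 7 interstitial progenitor markers was 697 to 844 CPM in XX control, 1017 to 1367 CPM in XX KO, 1398 to 1473 CPM in XY KO and 1753 to 1919 CPM in XY control libraries. That of 8 markers of mesonephric tubules and duct was 42.6 to 53.5 CPM in XX control, 67.5 to 154 CPM in XX KO, 37.6 to 110 CPM in XY KO and 31.6 to 38.0 CPM in XY control libraries, and that of 6 germ cell markers was 781 to 1470 CPM in XX control and 322 to 761 CPM in XX KO libraries. Cdh16, an adhesion protein of kidney tubules, was at 0.81 CPM in XX control and 50.3 CPM in XX KO gonads on average. It belongs to the tubule and duct list, whose sum averaged 47.5 and 116 CPM in these groups. Most of the rise of that list was thus the rise of Cdh16. The part of these markers in the rise of the chains was not tested.

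**Figure D4:**
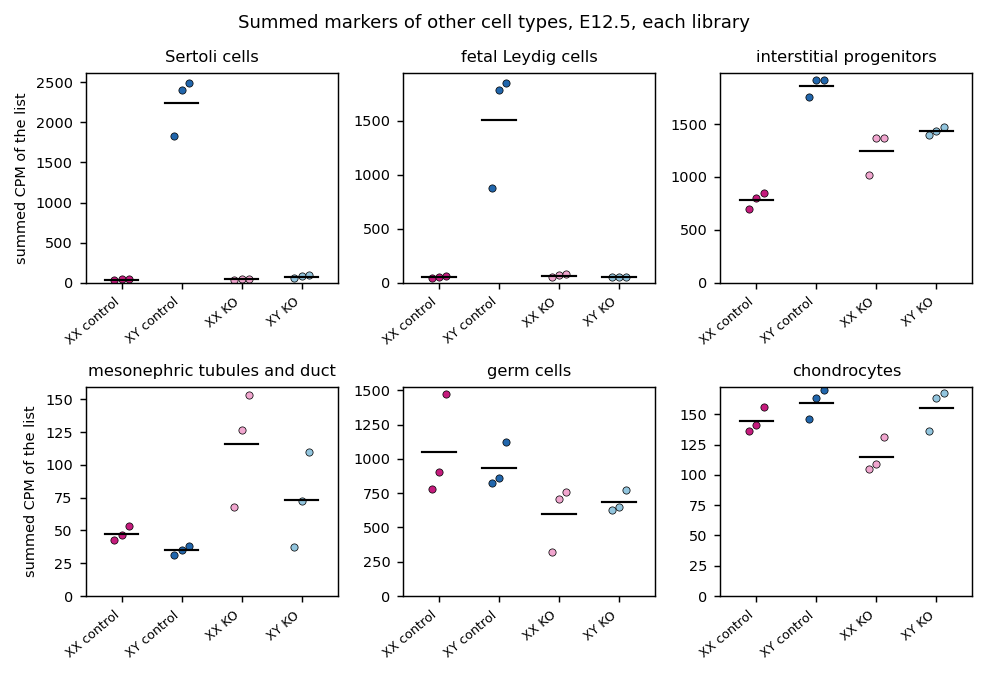
Summed levels in CPM (vertical axes, linear, from 0) of marker lists of 6 cell types at E12.5, with 1 point for each library and a bar at the mean, for the 4 genotypes. Sertoli and fetal Leydig cell markers were high in XY controls alone, and interstitial progenitor markers were lowest in XX controls, at 697 to 844 CPM.

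The effect of the deletion differed between the sexes at E12.5 for 30 chains (interaction of sex and genotype in the edgeR quasi-likelihood test). In 28 the log2 fold change was lower in XY than in XX gonads (51.9%, against 7.05% of all genes) and in 2, Col12a1 and Col19a1, it was higher (3.7% against 5.9%), and 22 of the 30 stayed called with each library left out. By its form the interaction is the log2 fold change of XX against XY controls minus that of XX KO against XY KO gonads. Its median over the chains was -0.98, as between the controls. These calls are thus not separate from the difference between the controls. Of chains called in both sexes, Col6a6 was among those that rose in both, and 6 fell in XY KO and rose in XX KO gonads, namely Col4a4, Col13a1, Col14a1, Col15a1, Col27a1 and Lamc3. Between XX KO and XY KO gonads themselves 0 chains were called by edgeR, where 0.0139% of all genes were higher and 0.139% lower in XX KO. There were 7 at unadjusted p under 0.05, and 0 were called by DESeq2. Without XX KO replicate 2, 6 chains were called, while calls over all genes rose from 22 to 1828. With all libraries kept the lowest FDR was 0.235 (edgeR) and the median log2 fold change was -0.02. A difference between the mutants in these chains was thus not detectable with all libraries kept.

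**Figure D5:**
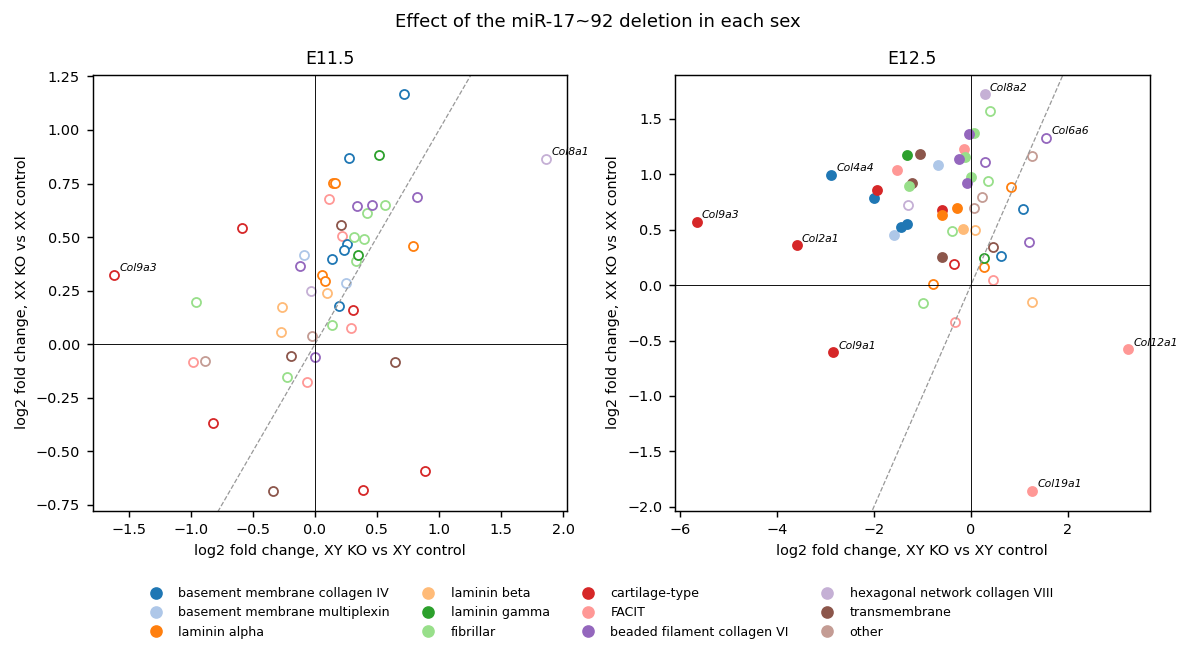
Log2 fold change of the tested chains reported by name in XX KO against XX control (vertical axis) over that in XY KO against XY control gonads (horizontal axis) at E11.5 and E12.5, coloured by class. Filled points had an interaction with an FDR under 0.05, which held for 0 chains in the E11.5 panel and 30 in the other; the dashed line marks equal changes, and Col9a3 and Col2a1 lie far to the left of it at E12.5.

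Partners of the chains moved with them in part. Of 12 basement membrane partners, 6 were lower (50%, against 12.4% of all tested genes) and 2 higher (16.7% against 11.4%) in XX than in XY controls at E12.5. Nid1, the nidogen that joins laminin to collagen IV, was lower (log2 fold change -1.41, FDR = 8.3e-06), as were Egflam, a ligand of dystroglycan (-2.16, FDR = 3.81e-07), and Tinagl1, a matricellular protein of basement membranes (-2.83, FDR = 1.29e-07). Npnt, an integrin ligand, was higher (1.90, FDR = 2.31e-05). In XY KO against XY control gonads 4 were lower (33.3% against 10.3%) and 2 higher (16.7% against 10.3%), among them Tinagl1 (-2.50, FDR = 5.37e-07), Npnt (1.94, FDR = 2.37e-05), Frem2 (1.58, FDR = 8.73e-05) and Egflam (-0.94, FDR = 0.000802). In XX KO gonads 3 were higher (25% against 3.42%) and 0 lower than in XX controls, among them Egflam (1.08, FDR = 0.00657). At E11.5, 0 of the 12 were called between the controls (edgeR quasi-likelihood test), and 2 were higher in XY KO (16.7% against 5.88%) and 3 in XX KO gonads (25% against 1.81%); Frem1, an adhesion protein of epithelial basement membranes, was called in both (0.54, FDR = 0.00399, and 0.86, FDR = 0.000476).

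Of 28 enzymes and chaperones of collagen folding and processing, 14 were lower (50%, against 12.4% of all tested genes) and 1 higher (3.57% against 11.4%) in XX than in XY controls at E12.5. In XY KO against XY control gonads 7 were lower (25% against 10.3%) and 1 higher (3.57% against 10.3%), and in XX KO against XX control gonads 7 were higher (25% against 3.42%) and 0 lower. Loxl2, a crosslinking enzyme, had log2 fold changes of -1.61 (FDR = 1.8e-07), -0.92 (FDR = 4.84e-05) and 0.50 (FDR = 0.0276) in these comparisons. Adamts2, which cleaves the amino propeptide of fibrillar procollagen, was lower in XX controls (-1.62, FDR = 1.72e-05), and Pcolce, which aids cleavage of the carboxy propeptide, was lower in XX controls (-1.23, FDR = 0.000109) and in XY KO gonads (-1.32, FDR = 7.57e-05). Plod2, a lysyl hydroxylase, was lower in both as well (-1.17, FDR = 0.000238, and -0.65, FDR = 0.0192). At E11.5, 0 of the 28 were called between the controls (edgeR quasi-likelihood test), 5 were higher in XY KO (17.9% against 5.88%) and 7 in XX KO gonads (25% against 1.81%), and Lox, the main collagen crosslinker, was among both (1.21, FDR = 0.000526, and 0.75, FDR = 0.0217).

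Of 13 receptors of collagen and laminin, 4 were lower (30.8%, against 12.4% of all tested genes) and 2 higher (15.4% against 11.4%) in XX than in XY controls at E12.5. Itga6, the alpha subunit of laminin-binding integrins, was higher in XX than in XY controls at E11.5 (0.51, FDR = 0.0394) and at E12.5 (0.70, FDR = 0.000964) and higher in XY KO than in XY control gonads at E12.5 (0.98, FDR = 7.42e-05). Itgb4, its epithelial partner, was higher in both comparisons at E12.5 (1.23, FDR = 0.0378, and 1.26, FDR = 0.0361). Itga6 and Itgb4 were the 2 called higher between the controls at E12.5, and the 4 called lower are not named here. In XY KO gonads of that stage 2 of the 13 were higher (15.4% against 10.3%) and 0 lower, and in XX KO gonads 2 were higher (15.4% against 3.42%) and 0 lower. At E11.5, 1 was higher in XX than in XY controls (7.69% against 0.359%), 1, Itgb1, in XY KO (0.55, FDR = 0.0039, or 7.69% against 5.88%) and 2 in XX KO gonads (15.4% against 1.81%). Of 10 tested genes of matrix degradation and its inhibitors, 3 were lower (30% against 12.4%) and 1 higher (10% against 11.4%) in XX than in XY controls at E12.5. Mmp2, a gelatinase that cleaves collagen IV, was lower in XX controls (-1.25, FDR = 1.72e-05) and higher in XX KO than in XX control gonads (1.18, FDR = 0.00249). In XY KO gonads 1 of the 10 was higher and 1 lower than in XY controls (10% each, against 10.3%), and in XX KO gonads 3 were higher (30% against 3.42%) and 0 lower than in XX controls. At E11.5, 2 were higher (20% against 5.88%) and 1 lower (10% against 6.81%) in XY KO gonads, 2 were higher in XX KO gonads (20% against 1.81%), and 0 were called between the controls (edgeR quasi-likelihood test).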

How the data were processed

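RNA was sequenced from gonads of 4 genotypes at 2 stages, 3 libraries each. The authors aligned reads to mm10 and counted them per gene with featureCounts; the deposited values are raw counts, and the annotation, strand and multimapping settings are not given in the sources used here. Tables of another mutant of the series (12 per-sample columns) were not used. In R 4.3.3, edgeR 4.0.16 (TMM, robust quasi-likelihood fit over all 12 libraries of a stage) tested genes with at least 1 CPM in at least 2 libraries, 14217 at E11.5 and 14348 at E12.5, with Benjamini-Hochberg adjustment over all of them. Standard errors are the absolute log2 fold change over the square root of F. Total counts per library are given in the text and set the precision of low levels. DESeq2 1.42.0, other scalings, no filter, a replicate block and leaving out each library were alternatives. The scripts were tested on simulated data. Members, gene lists and tests were chosen with earlier results of these data known. Named were all called chains (the 30 of smallest FDR where a comparison had more), the most abundant chain of each class, fixed chains of the main basement membrane, fibrillar and cartilage trimers, untested chains, and at most 4 partners per list called between the controls or in XY KO, by lowest FDR; other genes were named after their values were seen. Levels per kb used union exon lengths of GENCODE vM21 (GRCm38). A chain counted among the members is not reported by name here.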

Additional observations from a re-analysis of the deposited data

Results flagged for a closer look

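At E12.5 the change with the deletion differed between XY and XX gonads for 30 chains in the test of that difference (edgeR interaction, FDR under 0.05). The values are the log2 fold change in XY minus that in XX gonads. They also equal the log2 fold change of XX against XY controls minus that of XX KO against XY KO gonads. Among basement membrane chains they were -3.87 for Col4a4, -2.79 for Col4a3, -1.98 for Col4a1, -1.88 for Col4a2, -2.04 for Col18a1 and -1.75 for Col15a1. Among laminins they were -2.50 for Lamc3, -1.23 for Lama2, -0.98 for Lama4 and -0.67 for Lamb1. Among cartilage-type chains they were -6.22 for Col9a3, -3.95 for Col2a1, -2.80 for Col9a2, -2.24 for Col9a1 and -1.27 for Col11a1. Among fibrillar chains they were -2.18 for Col27a1, -1.32 for Col3a1, -1.29 for Col1a2 and -0.97 for Col5a1. Collagen VI and VIII gave -1.39 for Col6a1, -1.40 for Col6a2, -0.99 for Col6a3 and -1.44 for Col8a2. Transmembrane chains gave -2.22 for Col13a1, -2.13 for Col25a1 and -0.85 for Col23a1. FACIT chains gave -2.55 for Col14a1, -1.38 for Col16a1, 3.81 for Col12a1 and 3.12 for Col19a1. Sertoli, Leydig and interstitial markers differed between the same libraries, and their part was not tested.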

How the results depend on the processing

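Of the alternatives, none turned the direction of a log2 fold change that was called. Changes that were not called were not checked in this way. DESeq2 called 4 chains between the controls at E11.5, 13 in XX KO against XX control and 4 for the difference between the sexes in the change with the deletion; without the filter on low counts, 1 was called between the controls and 1 for that difference. With one library left out, the calls at E11.5 ranged from 1 to 12 between the controls, from 2 to 17 in XY KO, from 2 to 12 in XX KO and from 0 to 2 for the difference between the sexes. At E12.5 they ranged from 1 to 25 in XX KO and from 0 to 6 between the mutants. Calls over all genes moved as well, at E11.5 from 56 to 2495 between the controls and from 814 to 2891 in XY KO. The cause was not tested. The correlations of deviations of libraries that share a replicate number were -0.304 to 0.450 at E11.5 and -0.507 to 0.388 at E12.5. Libraries with different numbers were not compared, so these values cannot decide whether the numbers pair the libraries. With a replicate block, calls were 3, 7, 6, 0 and 0 at E11.5 and 36, 24, 20, 0 and 28 at E12.5 (in the order controls, XY KO, XX KO, mutants, difference between the sexes). Of the alternative log2 fold changes of called chains, 20 of 660 lost their call where all libraries were kept and 195 of 1584 with one left out, and 0 turned direction; 9 levels per kb moved with the basic transcript set. Low levels limit Col19a1, Col28a1, Col8a1, Lamb3, Col4a3 and Col4a4, each near 1 CPM in at least 1 group.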
